A study of Mustela putorius furo and Mus musculus with 4 samples.

Results

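The genes described here encode 10 proteins by which phagocytes, astrocytes among them, recognise and take up dying cells, synapses and debris. They are Megf10, Lrp1, the TAM receptors Mertk, Axl and Tyro3, the TAM ligands Gas6 and Pros1, the bridging protein Mfge8, the integrin subunit Itgb5 and the adaptor Gulp1. They were taken by symbol from the expression values of ferret and mouse astrocytes, and all 10 were present among the 13373 symbols shared by both species. The ferret cells came from the cerebral cortex of pigmented sable ferrets on postnatal day 1, and the mouse cells from the cortex of wild-type ICR mice on postnatal day 1 to 3. Each species was represented by 2 libraries. Cells were grown as mixed glia for 14 days in serum, shaken to remove loosely attached cells, replated, and held for the last 4 days in a serum-free medium with heparin-binding EGF-like growth factor. The glia of a ferret pup were spread over several flasks, whereas several mouse pups were pooled in a flask.

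Dying cells and pruned synapses expose phosphatidylserine on their outer membrane. Gas6 and protein S, the product of Pros1, bind this lipid and activate the receptor tyrosine kinases TYRO3, AXL and MERTK, named TAM after their initials. MFG-E8 also binds phosphatidylserine and links it to the integrins αvβ3 and αvβ5, while MEGF10 and LRP1 are large single-pass receptors that signal through adaptors such as GULP1. Astrocytes are known to engulf synapses through MEGF10 and MERTK.

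Short coding stretches of the mouse genes show sequence features of some of these proteins. The TAM receptors share a signature in the kinase domain, found here in the translated reading frame, and its codons are given in capitals, read 5′ to 3′ on the coding strand of GRCm38 (GENCODE release M21).
Axl, exon 18, minus strand, chr7:25761438-25761464: gtcAAGTGGATTGCTATTGAGAGTctg
Mertk, exon 17, plus strand, chr2:128793046-128793072: gtgAAGTGGATCGCCATCGAGAGCctg
Tyro3, exon 17, plus strand, chr2:119812903-119812929: gtcAAGTGGCTGGCCCTGGAGAGCttg
Axl and Mertk were identical at 17 of these 21 bases and encode the same peptide there. Tyro3 matched Mertk at 17 and Axl at 15 bases and encodes a different peptide. Each of the 3 genes held this signature once in its coding sequence, and it was absent from the coding sequences of the other 7 members.

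Integrin αvβ5 recognises MFG-E8 through an RGD motif, and adaptors with a PTB domain, of which GULP1 is one, bind NPXY motifs in receptor tails. The codons of these motifs are in capitals below.
Mfge8, RGD, exon 3, minus strand, chr7:79145302-79145322: acacagCGTGGGGACatcttc
Lrp1, first NPXY of the tail, exon 88, minus strand, chr10:127539302-127539325: attggaAACCCTACCTACaagatg
Lrp1, second NPXY of the tail, exon 89, minus strand, chr10:127539058-127539081: ttcaccAACCCAGTGTATgccacg
The coding sequence of Mfge8 held 1 RGD. That of Lrp1 held 3 NPXY motifs, of which those in the last 100 codons are shown, and that of Megf10 held 1. Such a match describes the sequence only, since the motif letters also occur elsewhere, for example 1 RGD in Axl and 1 NPXY each in Mfge8 and Itgb5.

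Expression was given as FPKM, which counts fragments per kilobase of exon and per mapped fragments of the library. Summed over the shared symbols, FPKM was 227391 and 236543 in ferret against 300465 and 308121 in mouse libraries, so an equal FPKM stood for a larger share of the total in ferret astrocytes. Across the 10204 genes tested, the median log2 difference, ferret minus mouse, was -0.35 with FPKM as deposited, -0.01 when each library was rescaled to the mean of the 4 sums, and 0.05 after quantile normalization. Duplicates differed by a median absolute log2 value of 0.081 in ferret and 0.065 in mouse astrocytes. The sources do not say whether duplicates came from separate cultures, so the p-values measure only the spread between these libraries. Species, annotation and culture cannot be told apart in this design, and with 2 libraries per species the smallest p of an exact permutation test is 0.333. In whole cultures, fewer cells of a type and less RNA per cell cannot be told apart. Gfap was at 1481 to 1522 FPKM in ferret and 1429 to 1546 FPKM in mouse libraries. The astrocyte marker Slc1a2 was at 0.133 and 0.178 FPKM in ferret against 47.1 and 51.8 FPKM in mouse libraries. S100b went the other way, at 247 and 244 FPKM in ferret against 57.3 and 63.1 FPKM in mouse libraries. So did Aldoc, at 1619 and 1700 against 916 and 1015 FPKM. Of the 10 astrocyte markers 6 were called lower and 1, S100b, higher in ferret astrocytes, by the rule given below.

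The 10 engulfment genes were expressed in astrocytes of both species, and those of the 10 that were called differed in 1 direction. Itgb5, Lrp1, Gas6 and Mertk were lower in ferret astrocytes in the limma fit, where a call required a log2 difference beyond 1 and an adjusted p (Benjamini-Hochberg) under 0.05, and 0 members were called higher. Of all genes tested, 30.1% were called lower and 13.1% higher in ferret astrocytes. The members' count of 4 lower among 10 therefore stands close to the background. With either other scaling Mertk was no longer called and 3 members were called lower, against 21.7% of all genes after rescaling and 20.4% after quantile normalization. At the adjusted p alone 8 of the 10 members differed, against 88.6% of all genes tested. The libraries of the 2 species did not overlap for any of the 10 members, which was also so for 94.1% of all genes tested. The median log2 difference of the members was -0.65, beside -0.35 over all genes tested.

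**Figure D1:**
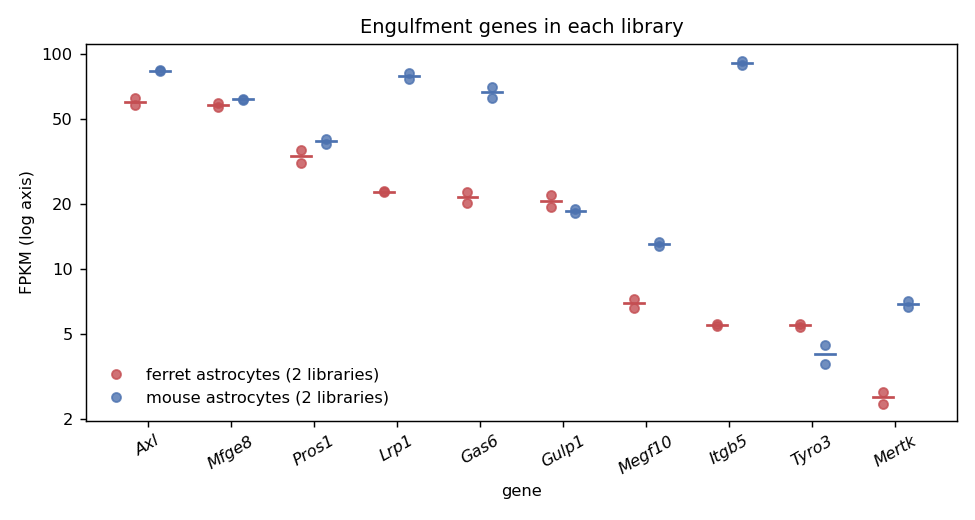
FPKM of each of the 10 genes (log axis) in the 2 ferret and 2 mouse libraries, with points for libraries and short lines for means. Itgb5 lies at 5.45 and 5.57 in ferret libraries and near the top in mouse libraries, whereas Mfge8 lies close to 60 in both species.

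In ferret astrocytes the highest of these genes were Axl and Mfge8, followed by Pros1. The ranges of the ferret duplicates overlapped for Axl and Mfge8, Lrp1 and Gas6, Gas6 and Gulp1, and Itgb5 and Tyro3. Within each ferret library Axl was above Mfge8 and Itgb5 above Tyro3. The order of Lrp1 and Gas6, and that of Gas6 and Gulp1, changed between the ferret libraries. Mertk was lowest. In mouse astrocytes the order by mean FPKM ran Itgb5, Axl, Lrp1, Gas6, Mfge8, Pros1, Gulp1, Megf10, Mertk and Tyro3, and no neighbours in this order overlapped between their duplicates. Itgb5 thus stood first in mouse and eighth of 10 in ferret astrocytes. The last places were held by Tyro3 and then Mertk in ferret astrocytes, and by Mertk and then Tyro3 in mouse astrocytes.

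Megf10 encodes an engulfment receptor that is enriched in astrocytes. Its FPKM was 6.61 and 7.25 in ferret against 12.7 and 13.3 in mouse libraries. Both ferret libraries lay below both mouse libraries, with a log2 difference of -0.82 (standard error, SE, 0.073, limma adjusted p = 2.29e-06), which passed the adjusted p but not the limit of 1, so Megf10 was not called. It stayed negative after rescaling, at -0.47 (limma adjusted p = 2.62e-04), and after quantile normalization, at -0.40 (limma adjusted p = 7.88e-04). The genes closest to Megf10 over the 4 libraries were Tada3, at a Euclidean distance of 0.080 on the log2(FPKM + 1) scale, and Efnb2, at 0.113.

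Lrp1 encodes a receptor of the LDL receptor family that takes up many ligands, apolipoprotein E and myelin debris among them. The mouse gene lies on the minus strand of chromosome 10 from 127538161 to 127621148 in GRCm38. Its FPKM was 22.9 and 22.8 in ferret against 81.4 and 76.7 in mouse libraries. The ferret libraries lay far below the mouse libraries, and their duplicates were nearly equal. The mean FPKM was 3.46-fold higher in mouse astrocytes, and the log2 difference was -1.74 (SE 0.060, limma adjusted p = 2.11e-09). Lrpap1, which encodes the chaperone that keeps LRP1 from binding ligands on its way to the surface, went the other way and was chosen for naming after its values were seen. It had 265 and 279 FPKM in ferret against 102 and 114 FPKM in mouse libraries, and was called higher in ferret astrocytes with a log2 difference of 1.33 (SE 0.068, limma adjusted p = 3.65e-08). The ratio of Lrp1 to Megf10 FPKM within a library was 3.31 ± 0.227 (SD, n = 2) in ferret against 6.07 ± 0.449 (SD, n = 2) in mouse astrocytes.

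Of the TAM receptors, Axl was by far the highest in both species, which differed in the less expressed receptors. Axl, which binds Gas6 most tightly and is raised in inflammation, had an FPKM of 58.0 and 62.2 in ferret against 84.0 and 83.1 in mouse libraries. The ferret values were lower without overlap, with a log2 difference of -0.47 (SE 0.060, limma adjusted p = 3.73e-05). This depended on scaling. The difference was -0.08 (limma adjusted p = 0.107) after rescaling to the mean library sum and -0.16 (limma adjusted p = 0.0096) after quantile normalization. The genes closest to Axl were Timm17a and Mtch2, both at a Euclidean distance of 0.151.

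Mertk binds both TAM ligands and serves in the uptake of synapses and photoreceptor debris. It had an FPKM of 2.37 and 2.69 in ferret against 6.68 and 7.11 in mouse libraries. Both ferret libraries lay below both mouse libraries. The mouse mean was 2.73-fold higher, and the log2 difference of -1.16 (SE 0.081, limma adjusted p = 3.60e-07) led to a call. With the other scalings Mertk was still lower at the adjusted p but missed the limit of 1. It was at -0.85 after rescaling and -0.75 after quantile normalization. These values are on log2(FPKM + 1), which understates differences of low genes. With FPKM as deposited and a pseudocount of 0.1 the difference of Mertk was -1.42. Plekhh3, at a Euclidean distance of 0.037, and Sipa1l3, at 0.080, had the levels closest to those of Mertk.

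Tyro3, a receptor known mainly from neurons, was the only TAM receptor with a higher FPKM in ferret astrocytes. Its FPKM was 5.55 and 5.37 in ferret against 3.61 and 4.41 in mouse libraries. The values did not overlap but lay close together, and the mouse duplicates differed more than the ferret duplicates. The log2 difference was 0.37 (SE 0.090, limma adjusted p = 0.00325), below the limit for a call. Rescaling moved it to 0.69 and quantile normalization to 0.79. Without replicate 1 of the mouse astrocytes it was 0.26 (limma adjusted p = 0.052). Fam117a and Nfil3 were closest to Tyro3, at Euclidean distances of 0.122 and 0.140.

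**Figure D2:**
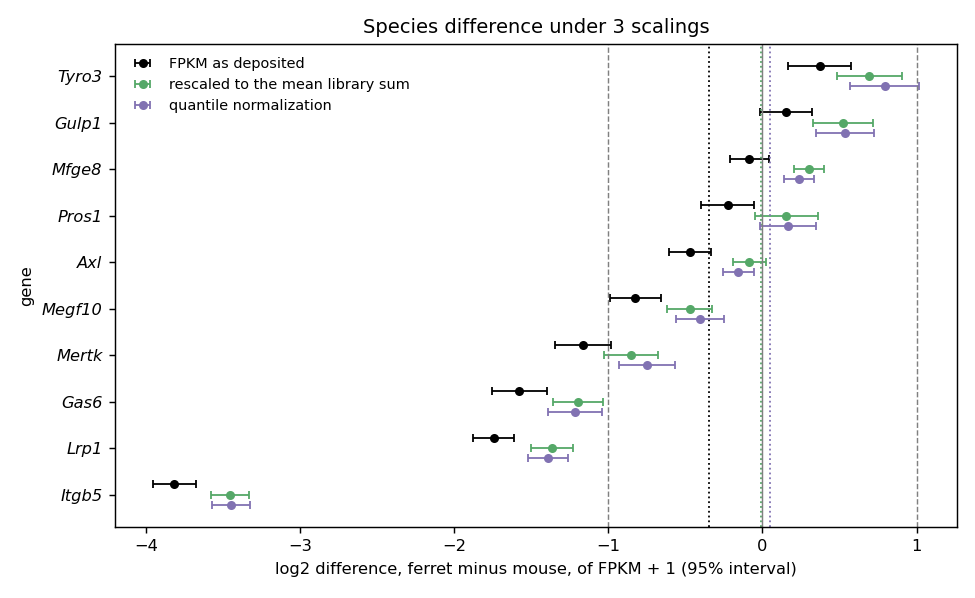
Log2 difference of FPKM + 1, ferret minus mouse, for each gene with its 95% interval from limma, with FPKM as deposited (black), rescaled to the mean library sum (green) and quantile normalized (purple). Dotted lines mark the median of all genes tested, and dashed lines the limits of -1 and 1. Itgb5, Lrp1 and Gas6 stay below -1 under each scaling, Mertk crosses that limit, and Mfge8 and Pros1 change sign.

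Within a library, shares of summed FPKM do not change when the whole library is multiplied by a constant, although they do depend on the gene models. They can change under quantile normalization, for which they were not computed. Of the FPKM of the TAM receptors together, Axl took 88.3% ± 0.382 (SD, n = 2) in ferret against 88.5% ± 0.900 (SD, n = 2) in mouse astrocytes. The Axl shares of both species overlapped, whereas those of Mertk and Tyro3 did not. Mertk made up 3.59% and 3.83% in ferret against 7.08% and 7.52% in mouse libraries. Tyro3 made up 8.42% and 7.65% in ferret against 3.83% and 4.66% in mouse libraries. The second most abundant TAM receptor by FPKM was Tyro3 in both ferret libraries and Mertk in both mouse libraries, with a Mertk to Tyro3 ratio of 0.463 ± 0.052 (SD, n = 2) and 1.73 ± 0.166 (SD, n = 2).

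The ligands of these receptors also differed in balance. Gas6, whose product activates all of the TAM receptors, had an FPKM of 20.2 and 22.8 in ferret against 62.1 and 70.3 in mouse libraries. Both ferret libraries lay far below both mouse libraries. The mouse mean was 3.08-fold higher, and the log2 difference was -1.58 (SE 0.080, limma adjusted p = 3.54e-08). The mouse gene lies on the minus strand of chromosome 8 from 13465374 to 13494490. Pros1, whose product protein S activates TYRO3 and MERTK and is also an anticoagulant cofactor, had an FPKM of 35.8 and 31.0 in ferret against 38.1 and 40.3 in mouse libraries. The libraries did not overlap, but the nearest libraries of the 2 species lay closer together than the ferret duplicates. Its log2 difference was -0.23 (SE 0.076, limma adjusted p = 0.0176), and it turned to 0.16 after rescaling (limma adjusted p = 0.122) and to 0.16 after quantile normalization (limma adjusted p = 0.078). The limma adjusted p of Pros1 was 0.103 without replicate 2 of the ferret astrocytes, 0.072 without replicate 1 and 0.169 without replicate 2 of the mouse astrocytes. Gas6 accordingly took a share of 36.1% and 42.4% in the FPKM of both ligands in ferret against 62.0% and 63.6% in mouse libraries. Pros1 was the higher ligand by FPKM in both ferret libraries and Gas6 in both mouse libraries. The sum of both ligands was 54.9 ± 1.46 FPKM (SD, n = 2) in ferret against 105.4 ± 7.32 FPKM (SD, n = 2) in mouse astrocytes.

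Itgb5 differed most among the members. It encodes the β5 subunit of integrin αvβ5, a receptor for MFG-E8 and vitronectin that works with MERTK in the retina. The mouse gene lies on the plus strand of chromosome 16 from 33829665 to 33949338. Its FPKM was 5.57 and 5.45 in ferret against 89.1 and 92.6 in mouse libraries. The duplicates of each species were close together and the species far apart. The mouse mean was 16.5-fold higher, and the log2 difference was -3.82 (SE 0.061, limma adjusted p = 2.74e-11). Only 1.66% of the genes tested had a log2 difference as low or lower. It was -3.46 after rescaling and -3.45 after quantile normalization. For this gene as for the others, a difference between the gene models of the 2 annotations cannot be told apart from a difference in expression.

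Itgav, which encodes the αv subunit, had its higher values in ferret astrocytes. It had 92.9 and 84.1 FPKM in ferret against 49.5 and 48.2 FPKM in mouse libraries, with a log2 difference of 0.84 (SE 0.065, limma adjusted p = 7.93e-07), below the limit for a call with FPKM as deposited but beyond it after rescaling, at 1.23, and after quantile normalization, at 1.19. The ratio of Itgb5 to Itgav FPKM was 0.060 and 0.065 in ferret against 1.80 and 1.92 in mouse libraries. Other β subunits that pair with αv were examined after the Itgb5 values were seen. Itgb3 was not among the symbols shared by both species and could not be compared. Itgb1, the common β1 subunit, was called lower in ferret astrocytes as well, with 150.2 ± 9.17 FPKM (SD, n = 2) against 648 ± 0.522 FPKM (SD, n = 2) and a log2 difference of -2.10 (limma adjusted p = 9.28e-10). Itgb8, whose αvβ8 integrin releases active TGF-β, had 19.0 and 17.3 FPKM in ferret against 20.4 and 20.8 FPKM in mouse libraries, with a log2 difference of -0.18 (SE 0.068, limma adjusted p = 0.031) that turned positive with both other scalings, at 0.19 when rescaled and 0.21 when quantile normalized. Itgb6 is listed at 0 in both ferret libraries and was at 0.040 and 0.059 FPKM in the mouse libraries.

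With FPKM as deposited, Mfge8 and Gulp1 showed the smallest differences of the members. Mfge8, which encodes the secreted bridge between phosphatidylserine and αv integrins, had an FPKM of 56.8 and 59.1 in ferret against 61.3 and 61.8 in mouse libraries. The log2 difference was -0.09 (limma adjusted p = 0.181), with a 95% interval from -0.21 to 0.04. After rescaling it was 0.30 (limma adjusted p = 3.49e-04) and after quantile normalization 0.24 (limma adjusted p = 0.0010), so its direction depended on scaling. Mfge8 FPKM was 10.2 and 10.8 times that of Itgb5 in the ferret libraries and 0.688 and 0.667 times in the mouse libraries.

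Gulp1, the adaptor that carries engulfment signals from NPXY motifs such as those of Lrp1 shown above, had an FPKM of 22.1 and 19.5 in ferret against 18.2 and 19.0 in mouse libraries. The nearest libraries of the 2 species again lay closer together than the ferret duplicates. The log2 difference was 0.15 (limma adjusted p = 0.078), with a 95% interval from -0.02 to 0.32. Without replicate 2 of the ferret astrocytes it was 0.24 (limma adjusted p = 0.018). It reached 0.52 after rescaling (limma adjusted p = 6.92e-04) and 0.54 after quantile normalization (limma adjusted p = 4.63e-04), below the limit for a call.

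**Figure D3:**
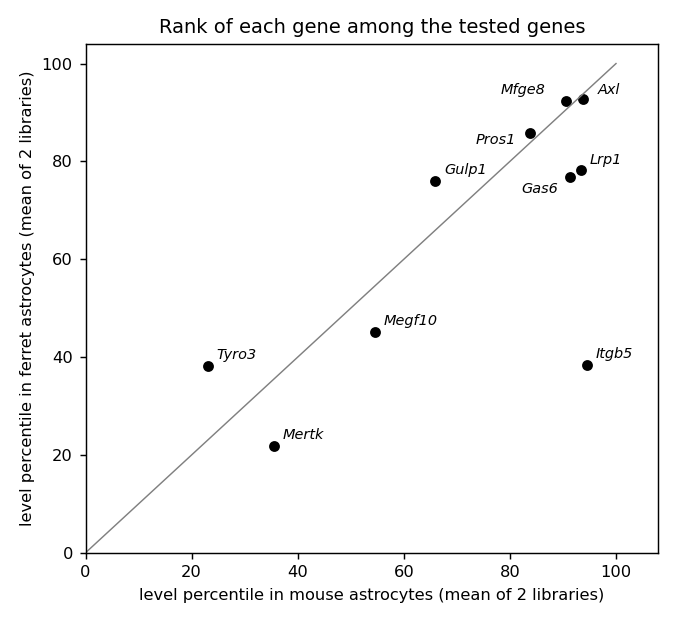
Percentile of each gene's FPKM among the 10204 genes tested, as the mean of 2 libraries, in mouse (x axis) and ferret astrocytes (y axis), with the line of equal percentiles. Itgb5 lies far below the line, at 94.4 in mouse and 38.4 in ferret astrocytes. Tyro3 and Gulp1 lie above it, and Pros1 and Mfge8 lie slightly above it, by 1.97 and 1.87 points.

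Ranking the genes within each library needs no common scale. The ranked set was the genes tested, however, which were chosen by deposited FPKM in either species. The ranks also depend on the gene models. Axl stood at percentile 92.8 of the tested genes in ferret and 93.8 in mouse astrocytes, and Mfge8 at 92.4 and 90.5. Pros1 stood at 85.7 and 83.7. Itgb5 stood at 38.4 in ferret and 94.4 in mouse astrocytes. Lrp1 stood at 78.3 and 93.3, Gas6 at 76.9 and 91.4, Mertk at 21.8 and 35.5 and Megf10 at 45.1 and 54.6, each lower in ferret astrocytes. Tyro3, at 38.1 and 23.0, and Gulp1, at 76.0 and 66.0, ranked higher in ferret astrocytes. No test was made of these ranks.

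**Figure D4:**
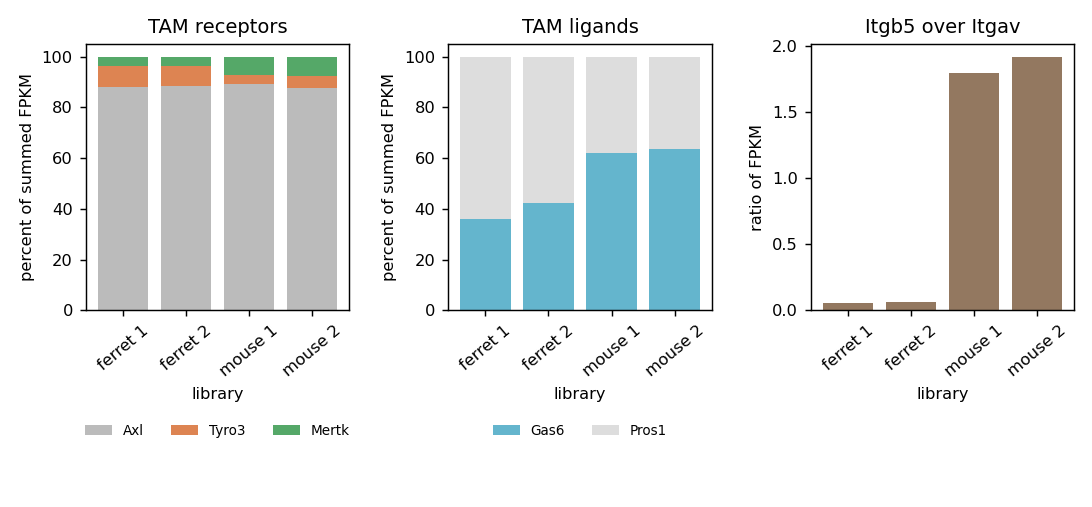
Shares of summed FPKM in each library for the TAM receptors (left) and TAM ligands (middle), and the ratio of Itgb5 to Itgav FPKM (right). The Axl share is between 87.8% and 89.1% in all libraries, the Gas6 share is 36.1% and 42.4% in ferret and 62.0% and 63.6% in mouse libraries, and the Itgb5 to Itgav ratio is under 0.1 in ferret libraries.

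Other genes of engulfment were grouped in 5 lists, which are described by counts. These counts stand beside 30.1% called lower and 13.1% called higher among all genes tested, with FPKM as deposited. After rescaling, 2215 of the 10204 genes tested were called lower and 1954 higher. After quantile normalization the counts were 2082 lower and 2080 higher. Of the 18 other receptors and bridging proteins, 15 had a symbol in both species and 12 were tested. In ferret astrocytes 3 were called higher, 6 were called lower and 3 were not called, and the median log2 difference was -0.94, beside -0.35 over all genes tested. Edil3, which encodes a bridging protein related to MFG-E8 that also binds phosphatidylserine and αv integrins, had 23.9 and 26.9 FPKM in ferret against 4.16 and 4.77 FPKM in mouse libraries, a log2 difference of 2.27 (SE 0.084, limma adjusted p = 3.74e-09). Lrp8, a reelin receptor of the LDL receptor family, had 40.4 and 45.0 FPKM in ferret against 12.5 and 13.9 FPKM in mouse libraries, a log2 difference of 1.62. Both genes were higher in each ferret library than in either mouse library.

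The lowest log2 differences in this list were those of Trem2 and Stab1, genes of the macrophage lineage. Trem2, a lipid receptor of microglia, had 1.04 and 0.511 FPKM in ferret against 45.9 and 43.0 FPKM in mouse libraries, a log2 difference of -4.69 (SE 0.123, limma adjusted p = 4.09e-10). Stab1, a phosphatidylserine receptor of macrophages, had 0.830 and 0.978 FPKM in ferret against 19.8 and 20.1 FPKM in mouse libraries. Adgrb1, which encodes the phosphatidylserine receptor BAI1 known from astrocytes and was chosen for naming after its values were seen, was also called lower, at 3.72 ± 0.073 FPKM (SD, n = 2) against 12.2 ± 0.779 FPKM (SD, n = 2). Relatives of Megf10 were looked at after their values were seen. Pear1 was at 0.390 and 0.258 FPKM in ferret against 12.5 and 12.6 FPKM in mouse libraries, and Megf11 had a mean under 1 FPKM in both species.

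Most of the signalling genes below the receptors were not called, which was also so for most genes tested. Of 16 genes of engulfment signalling and the cytoskeleton 14 were tested, of which 1 was called higher, 2 lower and 11 not, with a median log2 difference of -0.37, which was 0.01 after rescaling and 0.03 after quantile normalization. Vav3, a guanine nucleotide exchange factor, was higher in ferret astrocytes at 14.9 ± 0.715 against 5.90 ± 0.134 FPKM (SD, n = 2). Elmo3, of the family that partners DOCK1, had 0.344 and 0.263 FPKM in ferret against 3.07 and 3.38 FPKM in mouse libraries and was called lower. Crk, an adaptor upstream of DOCK1, was lower by a log2 difference of -1.01, just beyond the limit, and with either other scaling only 1 gene of this list was called lower. Rac1, the GTPase on which these pathways converge, had 180 ± 7.93 FPKM (SD, n = 2) in ferret against 235 ± 11.1 FPKM (SD, n = 2) in mouse astrocytes and was not called, with a log2 difference of -0.38 that was 0.0048 once libraries were rescaled and 0.07 once they were quantile normalized.

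Of 13 genes of phosphatidylserine exposure and of eat-me or don't-eat-me signals 9 were tested. With FPKM as deposited only Atp11a, a flippase that returns phosphatidylserine to the inner leaflet, was called, with 7.00 and 7.60 FPKM in ferret against 46.5 and 45.2 FPKM in mouse libraries and a log2 difference of -2.50 (limma adjusted p = 4.16e-10). The median of this list was 0.21. With either other scaling 2 of the 9 genes were called higher, and more of all genes tested were called higher as well. In the list of TAM ligand carboxylation, receptor shedding and downstream signalling 9 of 12 genes were tested, with a median of -0.19 that turned positive with both other scalings, at 0.19 when rescaled and 0.18 when quantile normalized. Tns2, a tensin, was the only gene called with FPKM as deposited, lower in ferret astrocytes with a log2 difference of -1.23, and 0 genes of the list were called lower with either other scaling. Ggcx, which encodes the vitamin K-dependent carboxylase that Gas6 and protein S require, had 17.2 and 17.3 FPKM in ferret against 10.2 and 11.6 FPKM in mouse libraries and was called higher after quantile normalization only, at a log2 difference of 1.03. Of 13 genes of phagosome maturation 9 were tested, with a median of -0.58, and 2 were called lower. Rubcn, needed for LC3-associated phagocytosis, had 2.14 and 2.34 FPKM in ferret against 24.7 and 25.5 FPKM in mouse libraries, a log2 difference of -3.01. Becn1, a subunit of the kinase complex that marks phagosomes and autophagosomes, was lower by a log2 difference of -1.03, and with either other scaling 1 gene of this list was called lower.

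**Figure D5:**
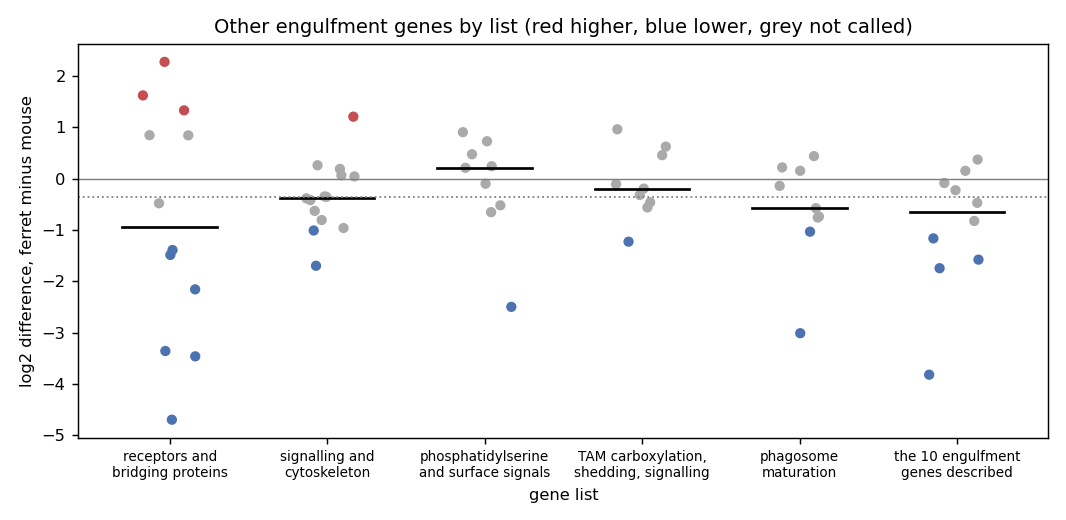
Log2 difference, ferret minus mouse, of each tested gene in 5 lists of other engulfment genes and of the 10 genes described, with black lines for list medians and a dotted line for the median of all genes tested. Red points were called higher and blue points lower in ferret astrocytes, and the list of receptors and bridging proteins spans the widest range, from -4.69 to 2.27.

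Markers of other cells also differed between the species, some lower and some higher in ferret astrocytes. Their part in the values of Itgb5, Lrp1, Gas6, Mertk and the other genes was not tested. Several of the members are also expressed by macrophages, microglia and fibroblasts. Of 20 microglial markers 18 were tested and 17 were called lower in ferret astrocytes, with FPKM summed over the markers present in both species of 77.5 to 77.6 in ferret and 992 to 1011 in mouse libraries, and Cx3cr1 and Ly86 are listed at 0 in both ferret libraries. Of 10 markers of meningeal fibroblasts 9 were tested and 8 were called lower, with sums of 129 to 142 in ferret and 1567 to 1591 FPKM in mouse libraries, and Slc6a13 is listed at 0 in both mouse libraries. Of 6 endothelial markers 2 were tested and both were called lower, with sums of 0.445 to 0.569 and 25.2 to 25.7 FPKM. Pecam1, Cdh5 and Tek are listed at 0 in both ferret libraries, and Cldn5 in both mouse libraries. Markers of the oligodendrocyte lineage went the other way, with 3 of 8 tested genes called higher in ferret astrocytes, or 5 with either other scaling, and sums of 169 to 188 against 69.0 FPKM. Of 6 neuronal markers 2 were tested and 1 was called higher, with sums of 24.7 in ferret and 31.9 to 33.1 FPKM in mouse libraries. Of 10 astrocyte markers 6 were called lower and 1 higher, or 4 and 2 with either other scaling, and none is listed at 0.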

How the data were processed

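RNA of cultured ferret and mouse astrocytes was sequenced from polyA-selected, stranded libraries. The authors aligned the reads with STAR (version 2.7.0f) to MusPutFur1.0 or GRCm38 and quantified genes with Cufflinks (version 2.2.1) on the Ensembl annotation of that species. The deposited values are FPKM, normalized to mapped fragments and exon length, with 1 file per library. Read counts that the authors list outside these files were not used here, so no total depth or counting interval is given. Steps between low values gave the ratio of depths of replicate 1 to replicate 2, 1.17 for ferret and 0.829 for mouse.

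Symbols were matched in upper case, and of several values for a symbol that of the highest mean was kept. Each member had 1 value per species. Genes whose mean FPKM reached 1 in either species were tested on log2(FPKM + 1), a scale that understates differences of low genes, with limma 3.58.1 (R 4.3.3, trended empirical Bayes) and Benjamini-Hochberg adjustment over all genes tested. A call required an absolute log2 difference above 1 besides an adjusted p under 0.05. The script was tested on simulated data.

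Members, marker lists and pathway lists were chosen with earlier results of these data known. Of each pathway list, the 2 called genes of largest log2 difference in each direction were named. For Megf10 and the TAM receptors, the 2 genes closest by Euclidean distance were named. This distance compares levels over the 4 libraries and cannot show that genes are regulated together. Adgrb1, Ggcx, Itgav, Itgb1, Itgb6, Itgb8, Lrpap1, Megf11, Pear1 and Rac1 were added to these names with their values known. Other settings tried were a pseudocount of 0.1, no filter, rescaling of the libraries, a replicate block, quantile normalization, summed values, no trend and each library left out. Sequences and coordinates are from GENCODE release M21 on GRCm38, a release other than the authors'. A ferret genome was not used here.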

Additional observations from a re-analysis of the deposited data

How the results depend on the processing

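The calls of Itgb5, Lrp1 and Gas6 held under all 11 alternatives tried, and that of Mertk under all but the 2 other scalings. Rescaled to a common library sum, 3 members were called lower, Mertk had a log2 difference of -0.85, and Pros1 and Mfge8 reversed to 0.16 and 0.30. After quantile normalization 3 members were called lower, Mertk was at -0.75, and Pros1 and Mfge8 reversed to 0.16 and 0.24. Over all genes tested, 1336 were called higher and 3069 lower in ferret astrocytes (30.3% higher). Rescaling gave 1954 and 2215 (46.9% higher) and quantile normalization 2080 and 2082 (49.98% higher). The log2 differences of all 10204 genes shifted upwards, by 0.06 to 0.39 with rescaling and by 0.08 to 0.82 with quantile normalization. Counts in the pathway lists moved with them. Receptors and bridging proteins called higher rose from 3 to 5 under both scalings, and signalling genes called lower went from 2 to 1 under both. Phosphatidylserine genes called higher went from 0 to 2 under both and to 1 with a pseudocount of 0.1. In the TAM carboxylation and signalling list, rescaling raised the genes called higher from 0 to 1 and quantile normalization to 2, and those called lower from 1 to 0 under both. Phagosome genes called lower went from 2 to 1 under both.

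Leaving out a library changed the call of no member, and the members' median log2 difference ran from -0.70 to -0.59. Signalling genes called lower ranged from 1 to 3, with 1 without replicate 1 of the ferret or replicate 2 of the mouse astrocytes and 3 without replicate 2 of the ferret or replicate 1 of the mouse astrocytes, and phagosome genes called lower from 1 to 2, with 1 without replicate 1 of the ferret astrocytes. A lone library was assumed to vary like the others. With the replicate number as a block, 4 members were called lower and 0 higher, and 3072 and 1342 of all genes. Deviations of same-numbered libraries correlated at 0.0099 across genes. From so few libraries this cannot show whether same-numbered libraries shared a preparation, which the sources do not say. Read counts were not used here, so the counting error of members and markers at low FPKM is not given.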
